A study of Mus musculus with 6 samples.

Results

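Collagen chain genes encode the subunits of the collagens, the triple-helical proteins of the extracellular matrix. Every mouse gene whose symbol reads Col, a number, a and a number was taken from the annotation of the array, if a probe set carried that symbol alone. This gave 44 genes on 47 probe sets, among 22180 genes measured in all. The rule used names only and no expression value, but it was set with earlier results of these data known. Of the 44 genes, 11 encode fibrillar chains, 8 encode chains of basement membranes (types IV, XV and XVIII) and 25 encode other chains.

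Liver RNA of 2 months old male C57BL/6N mice was hybridised to 6 arrays, 3 from knockouts of cGMP-dependent protein kinase 1 (cGK1-KO, gene Prkg1) and 3 from wild-type mice. According to the series description, smooth muscle of the knockout animals had the kinase restored, and the other group is called control mice there. The labels name neither the promoter of the rescue nor the deleted exon, and whether each array stands for its own animal is not said, so the p-values reflect only the spread among these samples, which may be technical. The title of the series concerns activation of hepatic stellate cells, and the comparison of the collagen genes bears on that question.

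Fibrillar collagens of types I, III and V assemble into the fibres that give tissue its tensile strength and that build up in liver scars. Type IV collagen forms the sheet-like network of basement membranes, and the multiplexins of types XV and XVIII sit in the same zone. In the liver, stellate cells are the main source of fibrillar collagen after injury, portal fibroblasts and sinusoidal endothelial cells make further chains, and hepatocytes make type XVIII collagen. In whole-liver RNA, fewer cells of a type and less RNA per cell cannot be told apart.

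All values are log2 RMA expression, a scale on which a difference of 1 is a doubling. RMA gives all arrays the same distribution of probe signals and leaves the distance between the levels of different genes without meaning. Comparisons between arrays are therefore made for the same gene, the same pair of genes or the same list. The median of an array was 3.11 to 3.16. Pairs of knockout arrays correlated at 0.978 to 0.983 and pairs of wild-type arrays at 0.989 to 0.99, taken over genes that are no independent replicates. Knockout replicate 3 correlated with wild-type arrays at 0.981 to 0.983 and with the other knockout arrays at 0.978 to 0.979. Knockout replicate 2 held the highest value of the 6 arrays in 11 of 11 Kupffer cell and macrophage markers, 9 of 10 sinusoidal endothelial markers and 7 of 11 stellate cell markers. It did so in 12 of the 44 collagen genes and in 3967 of all 22180 genes. The hepatocyte marker Alb, the albumin gene, lay between 13.31 and 13.44 in knockout arrays and between 13.30 and 13.41 in wild-type arrays. Alb does not stand for its list, since 6 of 8 hepatocyte markers had negative differences, as given below. Prkg1 itself had 3.31, 3.04 and 3.22 in knockout arrays against 3.32, 2.97 and 2.95 in wild-type arrays. The groups overlapped (difference 0.11, SE 0.15, limma adjusted p = 0.837, exact permutation p = 0.6), so Prkg1 does not check the genotype labels here.

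The promoters of 5 of the 6 collagen genes that stood at an unadjusted p under 0.05 are shown first, because these genes carry the comparison below. RefSeq windows were found for 35 of the 44 genes. Those of Col3a1, Col1a2, Col6a1, Col4a5 and Col8a2 follow, and the sixth gene is Col14a1. Each is the stretch of 250 bases before the gene's start in RefSeq's build GRCm38.p6, 5′ to 3′ on the gene's own strand. Capitals mark 3 motifs, in either orientation, and motifs may overlap: CCAAT (the CCAAT box, with ATTGG as its reverse), TATAAA (the TATA box, with TTTATA as its reverse) and GGGCGG (the GC box, with CCGCCC as its reverse).
Col3a1, chr1:45311288-45311537, plus strand: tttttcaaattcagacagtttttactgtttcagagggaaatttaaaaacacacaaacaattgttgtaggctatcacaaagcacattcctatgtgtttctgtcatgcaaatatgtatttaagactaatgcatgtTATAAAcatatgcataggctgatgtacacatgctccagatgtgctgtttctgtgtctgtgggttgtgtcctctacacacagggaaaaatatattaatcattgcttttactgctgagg
Col1a2, chr6:4505368-4505617, plus strand: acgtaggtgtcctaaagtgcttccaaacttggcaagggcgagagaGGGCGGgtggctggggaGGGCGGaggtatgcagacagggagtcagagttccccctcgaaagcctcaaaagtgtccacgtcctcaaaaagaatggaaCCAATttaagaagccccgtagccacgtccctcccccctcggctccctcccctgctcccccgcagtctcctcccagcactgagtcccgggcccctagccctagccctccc
Col6a1, chr10:76726045-76726294, minus strand: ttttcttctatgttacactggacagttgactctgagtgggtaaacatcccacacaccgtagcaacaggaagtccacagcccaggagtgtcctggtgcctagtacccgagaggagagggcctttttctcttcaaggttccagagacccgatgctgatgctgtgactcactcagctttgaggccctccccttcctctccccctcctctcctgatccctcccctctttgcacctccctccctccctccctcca
Col4a5, chrX:141475169-141475418, plus strand: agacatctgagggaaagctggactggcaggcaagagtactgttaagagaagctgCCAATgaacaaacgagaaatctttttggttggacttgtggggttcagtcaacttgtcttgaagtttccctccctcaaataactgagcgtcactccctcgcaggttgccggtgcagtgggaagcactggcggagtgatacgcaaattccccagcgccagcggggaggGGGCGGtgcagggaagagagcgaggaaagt
Col8a2, chr4:126286544-126286793, plus strand: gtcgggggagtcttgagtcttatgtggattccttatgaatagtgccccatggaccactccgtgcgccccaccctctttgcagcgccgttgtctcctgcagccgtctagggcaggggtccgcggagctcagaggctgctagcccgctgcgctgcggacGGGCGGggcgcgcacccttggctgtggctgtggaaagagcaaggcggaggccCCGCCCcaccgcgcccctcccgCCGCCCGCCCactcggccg
The 5 stretches differed in composition and in motifs. Guanine and cytosine made up 35.2% of the bases for Col3a1, 62.0% for Col1a2, 56.0% for Col6a1, 54.0% for Col4a5 and 70.0% for Col8a2, and the median of all 32851 windows was 52.4%. Col3a1 held the letters TATAAA, which began 117 bases before the start, and held neither of the other motifs. Col1a2 held a CCAAT box that began 109 bases before the start and GC boxes that began 205 and 188 bases before it. In Col6a1 these letters were absent from the window. Col4a5 held a CCAAT box and 1 GC box, and Col8a2 held 4 GC boxes. Over the 38 collagen windows, the CCAAT box was present in 34.2% against 33.8% of all windows, and the letters TATAAA, at any position, in 13.2% against 12.4%. The GC box was present in 57.9% of collagen windows and in 32.7% of all windows. It consists of guanine and cytosine alone, and the windows were not matched for their content of these bases. That content ran from 35.2% (Col3a1) to 76.4% (Col5a1) over the collagen windows. A match is a description of the letters and not of a bound site.

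Among the collagen genes, Col3a1 and Col1a2 were higher in the knockout arrays with no overlap of the groups, by 1.81-fold and 1.52-fold, while Col1a1, the partner chain of Col1a2, had overlapping groups. No gene of the array passed the adjusted threshold. In limma, 0 of 22180 genes and 0 of 44 collagen genes had an adjusted p under 0.05 (0% of all genes), and 2334 of all genes, 10.5%, had an unadjusted p under 0.05. At that unadjusted threshold 6 collagen genes lay higher in the knockout arrays, 13.6% of the 44, against 5.06% of all genes. On the lower side 0 collagen genes did, against 5.46% of all genes. The count of 6 became 3 of 44 without knockout replicate 2, where 6.12% of all genes lay higher. It became 2 of 44 without wild-type replicate 3, where 3.76% of all genes did, so its excess over all genes depends on single arrays. Col3a1 and Col1a2 lay at an unadjusted p under 0.05 in each of their 13 and 15 alternatives.

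Read without a threshold, the collagen genes leaned to higher values in the knockout arrays. Their difference was positive in 33 of 44 genes, 75%, where 50.2% of all genes were positive. Among the brighter genes, those with a mean above the median of the table (3.14), 26 of 36 collagen genes were positive, 72.2%, where 42.8% of all such genes were. The median difference was 0.06 over the 44 genes and 0.00108 over all genes. In 8 collagen genes all 3 knockout values lay above all 3 wild-type values, 18.2% of the 44, against 7.61% of all genes. In 1 gene, Col13a1, a membrane-spanning collagen gene, all 3 lay below, where 9.14% of all genes did so. These counts describe genes that share cell sources and were not tested as a set.

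**Figure D1:**
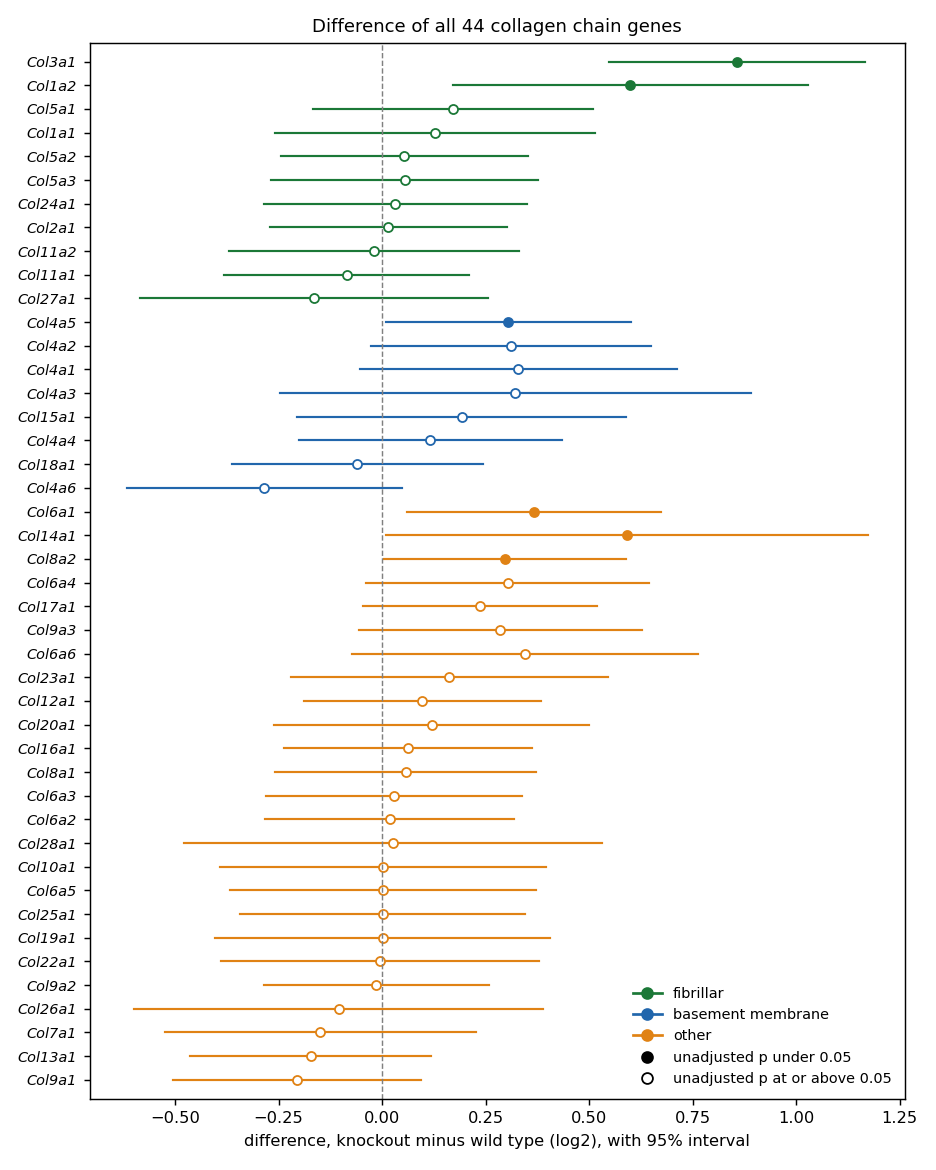
Difference between knockout and wild-type arrays (log2, horizontal axis) for all 44 collagen chain genes (vertical axis), with the 95% interval of the limma model as a bar. Filled points are the 6 genes at an unadjusted p under 0.05. Col3a1 (0.86) and Col1a2 (0.60) stand at the top of the fibrillar class, and most bars of the other classes cross 0.

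**Figure D2:**
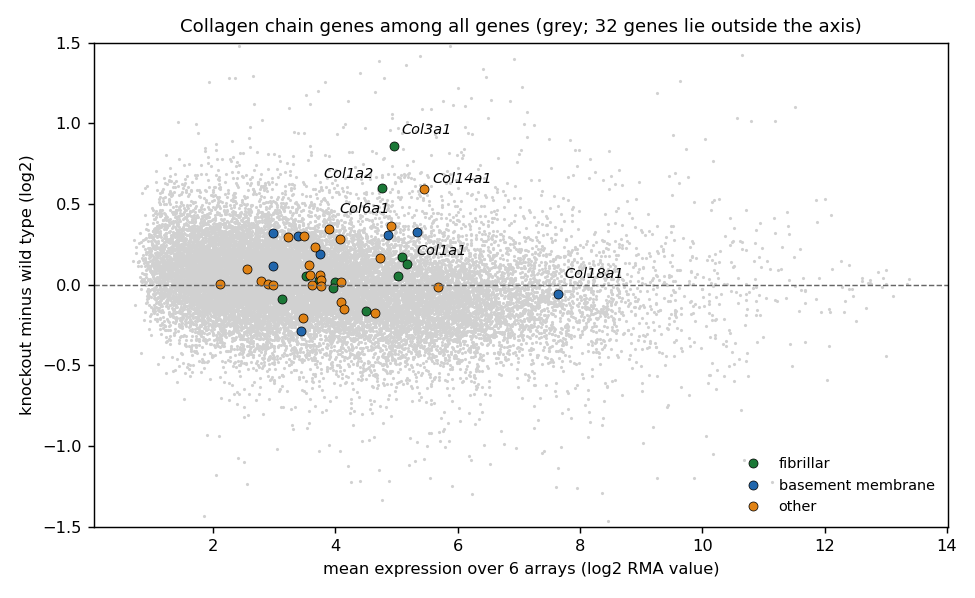
Mean expression over the 6 arrays (log2 RMA value, horizontal axis) against the difference between knockout and wild-type arrays (log2, vertical axis), with all genes in grey and the 44 collagen chain genes coloured by class. Of the 22180 genes, 32 lie outside the vertical axis. Most collagen points lie above the dashed line at 0 (33 of 44), within the cloud of all genes.

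Col3a1 encodes the chain of type III collagen, which forms thin fibres in distensible organs and copolymerises with type I collagen. It had 5.26, 5.49 and 5.43 in knockout arrays against 4.70, 4.43 and 4.48 in wild-type arrays. The lowest knockout array lay well above the highest wild-type array. The difference was 0.86 (SE 0.14, 95% interval 0.55 to 1.17, limma adjusted p = 0.130), a 1.81-fold ratio with an interval of 1.46 to 2.25, and the exact permutation test gave p = 0.1, the smallest that 3 against 3 arrays allow. Leaving out each array in turn gave differences between 0.80 and 0.94, so no array decided the value.

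Type I collagen is a heterotrimer of the products of Col1a1 and Col1a2, and it is the main collagen of scar fibres. Col1a2 had 4.81, 5.18 and 5.18 in knockout arrays against 4.75, 4.53 and 4.10 in wild-type arrays. The groups did not overlap, although knockout replicate 1 and wild-type replicate 1 lay close together. The difference was 0.60 (SE 0.19, 95% interval 0.17 to 1.03, limma adjusted p = 0.346), and a second, dimmer probe set gave 0.34 (unadjusted p = 0.0443), also without overlap. Col1a1 had 5.16, 5.54 and 5.01 in knockout arrays against 5.30, 5.09 and 4.93 in wild-type arrays. Here the groups overlapped, and knockout replicate 2 was the highest array. The difference was 0.13 (SE 0.17, limma adjusted p = 0.827), with an interval of 0.835- to 1.43-fold, and it was -0.02 without knockout replicate 2.

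The minor fibrillar chains had smaller differences. Col5a1 and Col5a2 encode chains of type V collagen, which starts fibrils and limits their width. Col5a1 had 5.13, 5.20 and 5.19 in knockout arrays against 5.27, 4.92 and 4.81 in wild-type arrays. The groups overlapped, and the difference was 0.17 (SE 0.15, limma adjusted p = 0.721), or 0.076 without wild-type replicate 3 and 0.31 without wild-type replicate 1. A second, dimmer probe set of Col5a1 ran the other way, at 3.16, 2.95 and 2.88 in knockout arrays against 3.60, 3.54 and 3.19 in wild-type arrays. Its difference was -0.44 (unadjusted p = 0.0189), so the direction of Col5a1 depends on the probe set. Col5a2 had 3.47, 3.44 and 3.71 in knockout arrays against 3.51, 3.43 and 3.52 in wild-type arrays, with a difference of 0.05 (SE 0.13). Over the 8 minor fibrillar genes the differences ran from -0.16 to 0.17, and 0 of them lay at an unadjusted p under 0.05, where 10.5% of all genes did. The median over all 11 fibrillar genes was 0.05, so the distance of Col3a1 and Col1a2 from 0 is not shared by their class.

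**Figure D3:**
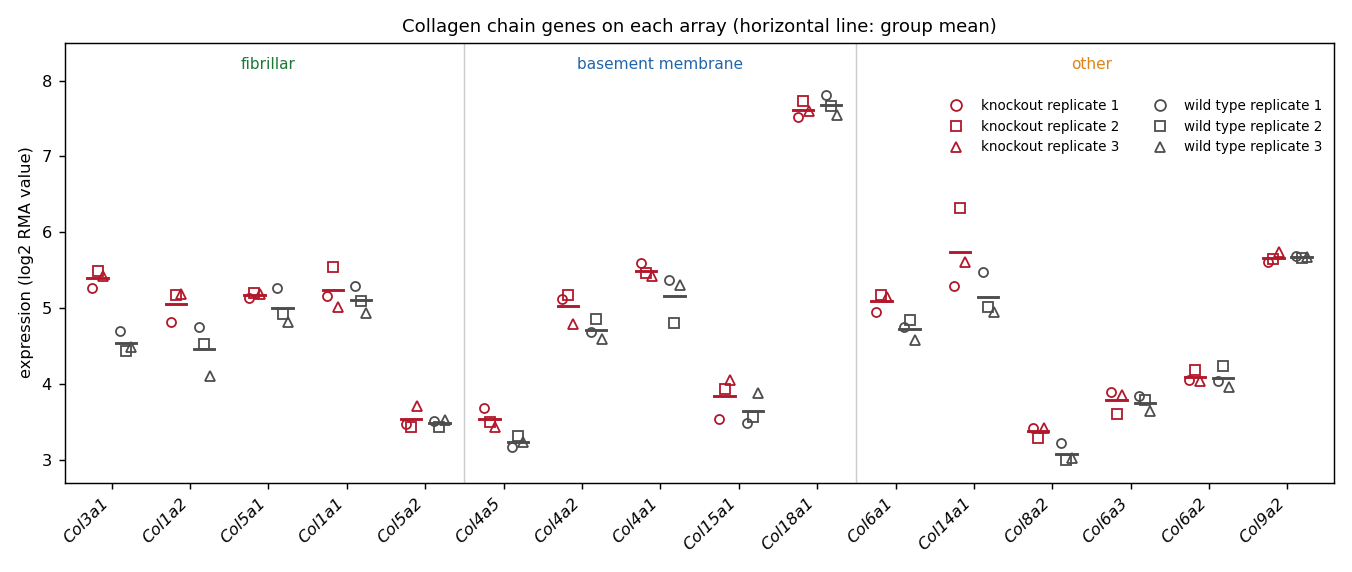
Expression on each array (log2 RMA value, vertical axis) of the 16 collagen chain genes described in full (horizontal axis), with knockout arrays in red left of wild-type arrays in grey and a line at each group mean. Col3a1, Col1a2, Col4a1, Col4a5, Col6a1 and Col8a2 show no overlap of the groups, and Col14a1 has knockout replicate 2 (6.32) above all other arrays.

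The chains of basement membranes had positive differences in 6 of 8 genes, 75%, the same share as over all 44 collagen genes. At an unadjusted p under 0.05 lay 1 of the 8, 12.5%, near the 10.5% of all genes. The median difference of the 8 genes was 0.25, that of the 6 type IV genes alone was 0.31, and it was 0.13 for the 8 without knockout replicate 2. Col4a1 and Col4a2 encode the chains of the type IV network found in most basement membranes. Col4a1 had 5.59, 5.46 and 5.42 in knockout arrays against 5.37, 4.81 and 5.31 in wild-type arrays. The groups did not overlap, but wild-type replicate 2 was low, and the difference of 0.33 (SE 0.17, limma adjusted p = 0.532) was 0.15 without it. Col4a2 had 5.11, 5.17 and 4.79 in knockout arrays against 4.69, 4.86 and 4.59 in wild-type arrays. These groups overlapped in knockout replicate 3, and the difference was 0.31 (SE 0.15, limma adjusted p = 0.506).

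The rarer type IV chains did not move as a block. Col4a5, whose loss in humans causes Alport syndrome of the kidney, had 3.69, 3.50 and 3.43 in knockout arrays against 3.16, 3.31 and 3.23 in wild-type arrays. The groups did not overlap, and the difference was 0.30 (SE 0.13, limma adjusted p = 0.459). Col4a6 encodes a chain that pairs with the product of Col4a5, and it had 3.20, 3.31 and 3.35 in knockout arrays against 3.79, 3.35 and 3.58 in wild-type arrays. Its difference was -0.28 (SE 0.15, limma adjusted p = 0.533), on the other side of 0. Col4a3 and Col4a4, with means below the median of the table, differed by 0.32 and 0.12 with overlapping groups, and knockout replicate 2 (3.77) set the value of Col4a3. Col4a3, Col4a4 and Col4a6 were singled out after their values were seen.

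The multiplexins overlapped between the groups. Col18a1, whose product releases the fragment endostatin, had 7.52, 7.73 and 7.59 in knockout arrays against 7.82, 7.67 and 7.55 in wild-type arrays. The difference was -0.06 (SE 0.13, limma adjusted p = 0.904), with an interval of 0.777- to 1.18-fold, and its sign turned when quantile normalization was repeated. Col15a1 had 3.53, 3.93 and 4.05 in knockout arrays against 3.48, 3.57 and 3.88 in wild-type arrays, a difference of 0.19 (SE 0.18, limma adjusted p = 0.734), which was 0.085 without knockout replicate 3 and 0.35 without knockout replicate 1.

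Among the other collagens, type VI forms beaded microfilaments close to cells and basement membranes. Col6a1 had 4.95, 5.17 and 5.15 in knockout arrays against 4.75, 4.84 and 4.58 in wild-type arrays. All knockout arrays lay above all wild-type arrays, with a difference of 0.37 (SE 0.14, limma adjusted p = 0.402), while a second, dimmer probe set gave 0.09 with overlap. Col6a2, a partner chain, had 4.06, 4.19 and 4.04 in knockout arrays against 4.04, 4.24 and 3.96 in wild-type arrays, a difference of 0.02 (SE 0.13). Col6a3, the third chain of the classical trimer, differed by 0.03 (SE 0.14). The differences of all 6 type VI genes were positive, from 0.00219 to 0.37, where 50.2% of all genes were positive. At an unadjusted p under 0.05 lay 1 of them, 16.7%, against 10.5% of all genes.

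Fibril-associated collagens sit on the surface of fibrils without forming fibrils themselves. Col14a1, the chain of type XIV collagen, had 5.29, 6.32 and 5.61 in knockout arrays against 5.48, 5.02 and 4.95 in wild-type arrays. The groups overlapped, and knockout replicate 2 was far above the rest. The difference was 0.59 (SE 0.26, limma adjusted p = 0.466), and it was 0.30 without that array. Col9a2, a chain of the cartilage collagen IX, had 5.61, 5.65 and 5.74 in knockout arrays against 5.69, 5.66 and 5.68 in wild-type arrays, a difference of -0.01 (SE 0.12) that turned positive when quantile normalization was repeated. Over the 9 genes of this group, differences ran from -0.21 to 0.59 with a median of 0.06.

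Col8a2, a short network-forming chain best known from the cornea, had 3.42, 3.29 and 3.42 in knockout arrays against 3.22, 2.99 and 3.03 in wild-type arrays. The groups did not overlap, and the difference was 0.30 (SE 0.13, limma adjusted p = 0.467), at a level close to the median of the table. Outside the 16 genes described in full, the differences of the remaining 28 ran from -0.28 to 0.34, with 19 positive and limma adjusted p between 0.520 and 0.999. In 2 of these 28, 7.14%, the knockout arrays lay above all wild-type arrays, near the 7.61% of all genes. They were Col6a4 (0.30) and the hemidesmosome gene Col17a1 (0.24). Both were singled out after their values were seen.

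Chains that pair in a trimer or lie side by side in the genome were set against each other within each array, which cancels a shift common to both probe sets of an array. Of the 7 pairs, Col3a1, Col1a2, Col4a5 and Col6a1 had been seen to differ before the pairs were chosen. The value for Col3a1 minus Col1a1 was 0.10, -0.04 and 0.42 in knockout arrays against -0.60, -0.66 and -0.45 in wild-type arrays. The groups did not overlap, so the ratio of these transcripts differed by 0.73 (exact permutation p = 0.1, adjusted over the 7 pairs p = 0.14). The value for Col1a2 minus Col1a1, the chains of type I collagen, was -0.34, -0.36 and 0.17 in knockout arrays against -0.55, -0.56 and -0.83 in wild-type arrays. These groups did not overlap either, and they differed by 0.47 (exact permutation p = 0.1, adjusted p = 0.14). With the dimmer probe set of Col1a2 the groups overlapped and differed by 0.21 (exact permutation p = 0.5).

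Neighbouring genes did not all go together. In the RefSeq gene table (GRCm38.p6), Col3a1 and Col5a2 are adjacent, and Col3a1 minus Col5a2 was 1.79, 2.06 and 1.72 in knockout arrays against 1.19, 1.00 and 0.97 in wild-type arrays, with no overlap. Col4a1 and Col4a2 are adjacent with overlapping spans. Col4a1 minus Col4a2 was 0.48, 0.29 and 0.63 in knockout arrays against 0.68, -0.05 and 0.71 in wild-type arrays, which overlapped (difference 0.02, exact permutation p = 1). The neighbours Col4a5 and Col4a6 had a within-array value of 0.49, 0.18 and 0.08 in knockout arrays against -0.62, -0.04 and -0.35 in wild-type arrays, a difference of 0.59 with no overlap. For the neighbours Col6a1 and Col6a2 the value was 0.89, 0.98 and 1.11 in knockout arrays against 0.71, 0.60 and 0.63 in wild-type arrays, also without overlap (difference 0.35). With the dimmer probe set of Col6a1 these groups overlapped and differed by 0.07 (exact permutation p = 0.8). With the brightest probe set of each gene, the exact permutation p of these last 2 pairs and of Col3a1 with Col5a2 was 0.1, the smallest possible, and 0.14 adjusted over the 7 pairs. Col4a3 minus Col4a4 overlapped (difference 0.21, exact permutation p = 0.7).

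**Figure D4:**
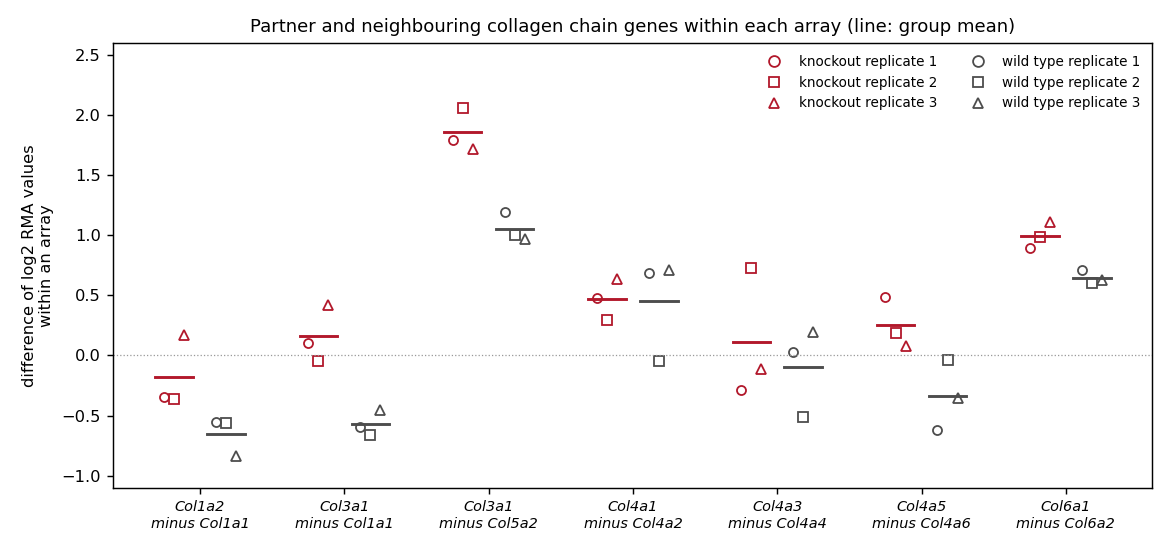
Difference of the log2 RMA values of 2 collagen chain genes within each array (vertical axis) for 7 pairs (horizontal axis), from the brightest probe set of each gene, with knockout arrays in red left of wild-type arrays in grey and a line at each group mean. The groups overlap for Col4a1 minus Col4a2 and for Col4a3 minus Col4a4, and they lie apart for the other 5 pairs. Each of those 5 holds Col3a1, Col1a2, Col4a5 or Col6a1, seen to differ before the pairs were chosen. The share of other gene pairs that lie apart was not computed.

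Genes that make, export and cross-link collagen lay on both sides of 0. Of 30 measured genes of collagen biosynthesis, 18 had positive differences with a median of 0.05, 3 lay higher and 1 lower at an unadjusted p under 0.05 (5.06% and 5.46% of all genes), and 0 passed the adjusted threshold in limma. Adamts14, an enzyme that removes the amino-terminal propeptide of procollagen, had 4.11, 4.25 and 4.29 in knockout arrays against 3.78, 4.09 and 3.65 in wild-type arrays (difference 0.38, SE 0.15). The groups did not overlap, but a second, dimmer probe set gave -0.18. Lox, the enzyme that starts collagen cross-links, had 3.43, 2.52 and 2.91 in knockout arrays against 2.37, 2.53 and 2.18 in wild-type arrays (0.59, SE 0.22). These groups overlapped in knockout replicate 2, and the difference was 0.35 without knockout replicate 1. Crtap, part of the complex that hydroxylates prolines of the chains, differed by 0.45 (SE 0.20), and by 0.23 without wild-type replicate 2. Sec24d, a coat protein of the vesicles that export procollagen, averaged 6.85 ± 0.24 in knockout arrays and 7.24 ± 0.0049 in wild-type arrays (SD, n = 3 each), without overlap and with a difference of -0.40 (SE 0.15). Serpinh1, the collagen-specific chaperone and singled out by its role, differed by -0.08 (SE 0.15).

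Of 10 measured collagen receptor genes, 8 had positive differences with a median of 0.14, and 1, or 10%, lay at an unadjusted p under 0.05, near the 10.5% of all genes. That gene was Lair1, an inhibitory collagen receptor of immune cells, at 3.98, 4.52 and 4.04 in knockout arrays against 3.83, 3.47 and 3.53 in wild-type arrays. Its groups did not overlap (difference 0.57, SE 0.18, limma adjusted p = 0.345). The integrin gene Itga1 differed by 0.28 (SE 0.18), and by 0.08 without knockout replicate 2. The platelet receptor gene Gp6 differed by 0.39 (SE 0.26), with 0.11 without wild-type replicate 1 and 0.67 without wild-type replicate 2. The integrin gene Itga11 differed by 0.16 (SE 0.14), and by 0.057 without knockout replicate 2.

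Of 12 measured genes of TGF-beta and PDGF signalling, the pathways that drive collagen transcription in stellate cells, 8 had positive differences with a median of 0.07. The ligand gene Tgfb2 alone lay at an unadjusted p under 0.05, 1 of 12 against 10.5% of all genes, with 3.41, 3.57 and 3.13 in knockout arrays against 2.76, 3.02 and 2.90 in wild-type arrays. Its groups did not overlap (difference 0.48, SE 0.15, limma adjusted p = 0.347), though its level lay near the median of the table. The ligand gene Tgfb1 differed by 0.38 (SE 0.21), and by 0.14 without knockout replicate 2. Tgfb3 differed by 0.34 (SE 0.19), and by 0.13 without wild-type replicate 3. The receptor gene Tgfbr2 differed by 0.30 (SE 0.18), and by 0.11 without knockout replicate 2.

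Markers of several liver cell types differed between the same arrays, and their part in the collagen values was not tested. An RMA value has no 0, so no marker is listed as absent, and lists are given by their summed linear signals. Bright probe sets weigh most in such sums. Stellate cell markers had positive differences in 9 of 11 genes (median 0.10), where 50.2% of all genes were positive. Their sums were 565 to 987 in knockout arrays and 518 to 616 in wild-type arrays. The highest sum was that of knockout replicate 2, the highest array in 7 of the 11 genes. The other knockout arrays, at 565 and 610, lay within the wild-type range. Lrat, the enzyme gene of retinyl ester storage in quiescent stellate cells and singled out by its role, had 5.25, 6.53 and 5.21 in knockout arrays against 5.68, 5.71 and 5.56 in wild-type arrays. Its difference was 0.01 (SE 0.31), and -0.42 without knockout replicate 2. The stellate cell marker Ecm1 differed by 0.54 (SE 0.21), and by 0.32 without knockout replicate 2. Des, which encodes desmin, differed by 0.41 (SE 0.18), and by 0.25 without wild-type replicate 2.

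Markers of activated stellate cells and myofibroblasts were split. Of 10 genes, 8 had positive differences (median 0.27), with 3 higher and 1 lower at an unadjusted p under 0.05 (5.06% and 5.46% of all genes), and sums ran from 675 to 1322 in knockout arrays and from 563 to 718 in wild-type arrays. The top of these sums was that of knockout replicate 2, and the other knockout arrays, at 677 and 675, lay within the wild-type range. Sparc, a collagen-binding matrix protein, had 6.24, 7.02 and 6.11 in knockout arrays against 5.79, 5.50 and 5.73 in wild-type arrays (0.78, SE 0.23), without overlap, and it differed by 0.50 without knockout replicate 2. Postn, which encodes the matrix protein periostin, had 5.79, 6.89 and 5.19 in knockout arrays against 5.32, 4.88 and 4.41 in wild-type arrays (1.09, SE 0.39), and its difference was 0.62 without knockout replicate 2. Acta2, the smooth muscle actin used to define myofibroblasts, lay on the other side, at 4.72, 4.85 and 4.52 in knockout arrays against 4.93, 5.05 and 5.29 in wild-type arrays (-0.39, SE 0.15, limma adjusted p = 0.413). The groups of Acta2 did not overlap.

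Kupffer cell and macrophage markers were positive in 11 of 11 genes (median 0.84), with sums of 828 to 2031 in knockout arrays and 616 to 669 in wild-type arrays. All 11 lay higher at an unadjusted p under 0.05 (5.06% of all genes) and 0 passed the adjusted threshold, with limma adjusted p from 0.221 to 0.429. Within that list, the complement gene C1qa differed by 0.84 (SE 0.17) and the scavenger receptor gene Marco by 0.74 (SE 0.18). Sinusoidal endothelial markers were positive in 9 of 10 genes (median 0.22), with sums of 957 to 1559 in knockout arrays and 911 to 942 in wild-type arrays. Lyve1, a hyaluronan receptor of these cells, had 7.40, 7.94 and 7.44 in knockout arrays against 6.76, 6.61 and 6.67 in wild-type arrays (0.92, SE 0.17, limma adjusted p = 0.178), and the orphan receptor gene Gpr182 differed by 0.47 (SE 0.13). Lyve1 and Gpr182 had the largest moderated statistics of the list and do not stand for it. Knockout replicate 2 was highest in 9 of the 10 genes and had the sum of 1559, against 957 and 1005 in the other knockout arrays. How many differences stay positive without it was not counted.

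Smooth muscle markers leaned lower, with 5 of 7 negative (median -0.27) and sums of 61.7 to 65.3 in knockout arrays and 67.7 to 78.0 in wild-type arrays. The contractile genes Cnn1 (-0.52, SE 0.15) and Lmod1 (-0.31, SE 0.13) lay lower at an unadjusted p under 0.05 (5.46% of all genes) without overlap. Portal fibroblast markers were positive in 3 of 7 genes (median -0.02), with sums of 166 to 176 in knockout arrays and 143 to 173 in wild-type arrays. Among them the hedgehog target Gli1 differed by 0.55 (SE 0.17) and Thy1 by -0.15 (SE 0.13). Cholangiocyte markers were positive in 3 of 5 genes (median 0.10), with sums of 56.8 to 72.3 in knockout arrays and 58.1 to 62.0 in wild-type arrays, and Krt19 and Cldn7 differed by 0.10 (SE 0.15) and 0.34 (SE 0.24). Without wild-type replicate 3 Krt19 differed by 0.00067, and without knockout replicate 1 Cldn7 differed by 0.034. Mesothelial markers were positive in 6 of 6 genes (median 0.13), with sums of 64.8 to 75.4 in knockout arrays and 60.4 to 71.7 in wild-type arrays, led by Wt1 (0.26, SE 0.16, and 0.10 without knockout replicate 1) and Gpm6a (0.23, SE 0.16, and 0.12 without wild-type replicate 3). Hepatocyte markers were negative in 6 of 8 genes (median -0.16), led by the nuclear receptor gene Hnf4a (-0.36, SE 0.13) and the tyrosine aminotransferase gene Tat (-0.38, SE 0.16, and -0.25 without wild-type replicate 2), with sums of 33072 to 33348 in knockout arrays and 34633 to 36551 in wild-type arrays.

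Set beside these markers, the summed fibrillar signal was 256, 282 and 270 in knockout arrays against 258, 230 and 213 in wild-type arrays. Wild-type replicate 1 reached the lowest knockout array, so these sums overlapped. The basement membrane sums were 316, 350 and 316 in knockout arrays against 340, 307 and 302 in wild-type arrays and overlapped too. The probe set of Col18a1 made up 58.2% to 61.1% of that sum in knockout arrays and 61.8% to 66.2% in wild-type arrays. This is its weight in the summed signal and not a share of transcripts. The sums of the 6 type IV genes alone were 121, 123 and 106 in knockout arrays against 104, 91.8 and 101 in wild-type arrays. They did not overlap, but only 106 and 104 parted the groups, and type IV alone was not 1 of the 3 planned classes. The sums of the other collagens were 422, 453 and 438 in knockout arrays against 400, 408 and 387 in wild-type arrays and did not overlap. Without knockout replicate 2, where stellate, endothelial and macrophage markers were highest, Col3a1 differed by 0.81 and Col1a2 by 0.54, while Col14a1 differed by 0.30 and Col1a1 by -0.02.

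**Figure D5:**
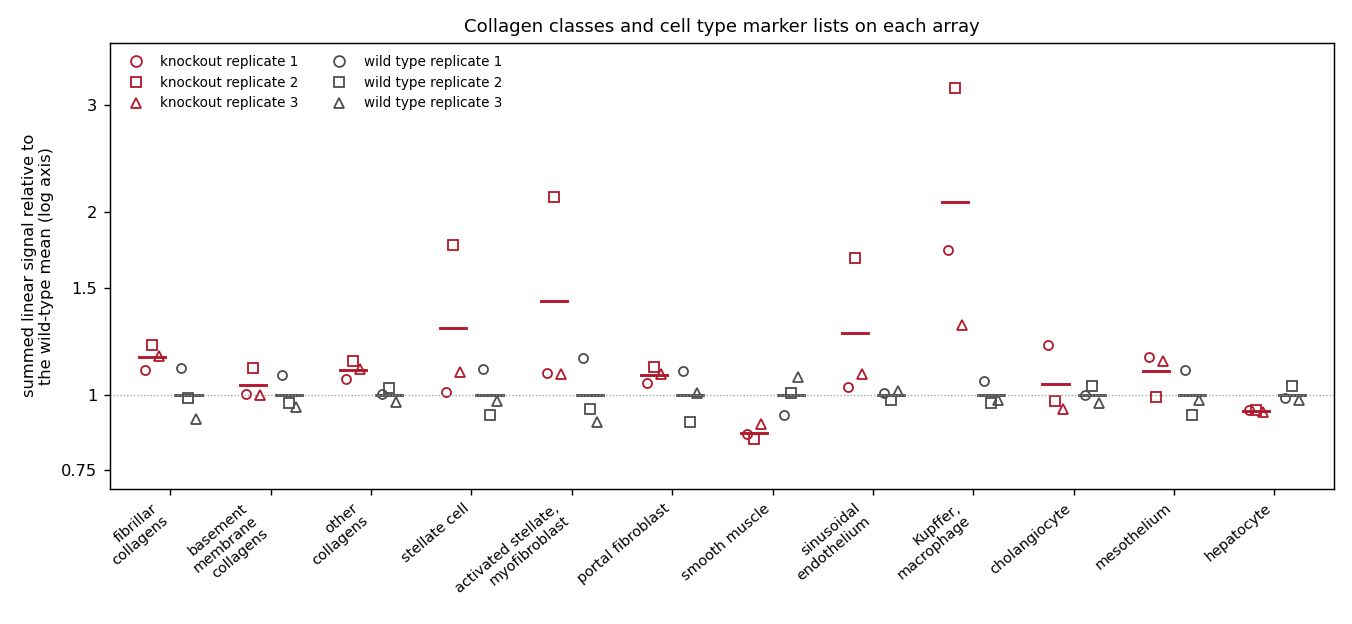
Summed linear signal of the 3 collagen classes and of 9 cell type marker lists (horizontal axis) on each array, relative to the wild-type mean (log axis), with knockout arrays in red left of wild-type arrays in grey and a line at each group mean. The macrophage sums lie at 1.73, 3.20 and 1.30 in knockout arrays, above the wild-type arrays, whereas the fibrillar collagen sums lie at 1.10, 1.21 and 1.16 in knockout arrays with wild-type replicate 1 at 1.10.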

How the data were processed

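Total liver RNA was measured on Affymetrix whole-transcript arrays. Per the submitters' processing notes, the authors used Affymetrix Expression Console 1.4.1 and RMA, and the deposited table holds log2 values of 41345 probe sets on 6 arrays. No genome build is given in the sources used here. Probe sets were named with the platform's annotation: 23521 had 1 symbol, 1814 several and 16010 were not listed. For a gene with several single-symbol probe sets, the brightest by its 6-array mean stood for the gene, giving 22180 genes, all tested. A probe set shared by Col6a1 and other genes was left out.

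Differences are knockout minus wild type from lmFit and eBayes (limma 3.58.1, R 4.3.3), with 2-sided p-values adjusted by Benjamini-Hochberg over all genes. Permutation tests were exact and 2-sided over the 6 arrays. No pair of arrays held identical values. The fit was tested on simulated data. Members and lists were chosen with earlier results of these data known. Collagen genes described in full are those at an unadjusted p under 0.05, those with means above 5.1 and 13 fixed by role. Of other lists up to 6 members with the largest moderated statistics are named, and exceptions are marked. Alternatives covered scaling, dim genes, the variance prior, array weights, replicate number, probe sets and each array left out. Sequences come from RefSeq (GRCm38.p6).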

Additional observations from a re-analysis of the deposited data

How the results depend on the processing

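No collagen gene passed an adjusted p of 0.05 under any of the 15 alternatives. Over all genes the count of 0 became 15 (7 higher) with only genes above the table median, 25 (13 higher) with a variance prior that follows intensity, and 0 to 66 (0 to 30 higher) with single arrays left out, the top value without knockout replicate 3 and 3 without wild-type replicate 3. Deviations from the group mean correlated at 0.00641, 0.0525 and 0.0154 over genes for same-numbered arrays of the 2 groups. For arrays of different numbers they correlated at -0.0455 to 0.0293. With 3 arrays a group, such correlations cannot decide whether the numbers pair the arrays. With the replicate block 1 gene passed over all genes. There 3 collagen genes instead of 6 lay higher at an unadjusted p under 0.05, against 5.18% of all genes. With single arrays left out that count of higher collagen genes ran from 2 to 7, where 3.54% to 6.12% of all genes lay higher. The count of lower collagen genes ran from 0 to 1. With the dimmest probe set of each gene, 1 collagen gene, Col5a1, was lower. Collagen genes whose knockout values lay below all wild-type values numbered 2 with the dimmest probe sets and 1 to 4 with single arrays left out. The 33 positive collagen differences became 29 with centred arrays and 26 to 32 with single arrays left out, 26 without wild-type replicate 3. The median difference ran from 0.13 to 0.28 for basement membrane chains and from 0.042 to 0.099 for other chains, against 0.029 with all arrays. Signs turned for small differences. With probe sets averaged Col5a1 stood at -0.14, and with the dimmest at -0.44 (Adamts14 -0.18). With quantile normalization repeated, Col18a1 stood at 0.0052 and Col9a2 at 0.053. With single arrays left out, Col1a1 ran from -0.024 to 0.24, Col5a2 from -0.033 to 0.10, Col18a1 from -0.13 to 0.0096, Col6a2 from -0.043 to 0.097, Col6a3 from -0.029 to 0.12, Col9a2 from -0.050 to 0.014, Lrat from -0.42 to 0.24, Serpinh1 from -0.18 to 0.013, Col4a1 minus Col4a2 from -0.23 to 0.15 and Col4a3 minus Col4a4 from -0.10 to 0.40. The pair comparisons and the positive count were added after seeing the data. The causes of these shifts were not tested. RMA hides a shift common to most genes, and members near or below the table median give uncertain sizes.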
